A study of Homo sapiens with 8 samples.

Results

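The levels of 10 mRNAs that serve as markers of pancreatic cancer stem cells were read in SW1990, an established line of pancreatic ductal adenocarcinoma, with and without CRISPR knockdown of PAF1, a subunit of a complex that travels with RNA polymerase II. The markers were DCLK1, CD44, CD24, SOX9, NES, BMI1, LRIG1, KIT, MSI2 and ALDH1A3, picked by name and found by their Ensembl identifiers, 10 of the 60483 genes in the deposited table. There were 2 libraries per group, each sequenced on 2 lanes that were summed. All 4 libraries are labelled as side population, the cells that pump out a DNA-binding dye, and nothing in the labels says that they came from separate cultures or clones. The controls are labelled only as control, and no guide, vector or time after editing is given in the sources used here. The 10 genes were chosen with earlier results of these data known, so counts over them are descriptions.

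In each group 1 library has a column name that starts with SP and 1 does not, and the libraries are called SP-prefixed and unprefixed here. The titles put all of them in the side population, and what the prefix separates was not stated. Both SP-prefixed names also carry the token P3, which cannot be told apart from the prefix. The name of the unprefixed control alone lacks the word CRISPR, so between the controls, but not between the knockdown-labelled libraries, the prefix goes with that word too. In the unprefixed pair the group also goes with that word and cannot be told apart from it, while both SP-prefixed names carry the word. Paired values below give the unprefixed library first. PAF1 mRNA did not separate the groups, at 55.1 CPM in the unprefixed control, 43.9 CPM in the SP-prefixed control, and, with the knockdown label, 41.7 CPM without and 44.4 CPM with the prefix (log2 fold change -0.20 ± 0.16 SE; edgeR, adjusted p = 0.663). CPM, the count scaled to the library's total, was adjusted here by the trimmed mean of M values (TMM). The libraries labelled PAF1 knockdown are therefore called knockdown-labelled, and every direction between groups rests on the labels. Total counts ran from 17234973 to 22348416 per library. The SP-prefixed control stood farthest from the other libraries, with a median absolute difference of 0.24 to 0.28 in log2 CPM over the tested genes against 0.16 to 0.23 among the other 3.

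Cancer stem cells are tumour cells able to renew themselves and to seed a new tumour, and in the pancreas they have been sorted or traced by surface proteins, by enzyme activity and by reporters of single genes. CD44, which binds hyaluronan, and CD24, a small glycoprotein held to the membrane by a lipid anchor, are the classic sorting pair together with EPCAM. DCLK1, a kinase that binds microtubules, marks tuft cells and a subset of tumour-initiating cells. SOX9 is a transcription factor of ductal and progenitor cells, BMI1 a chromatin repressor of the Polycomb family, MSI2 an RNA-binding regulator of translation, and ALDH1A3 an enzyme that makes retinoic acid. These markers label overlapping but not identical cells.

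Of the 10 markers, 7 had more mRNA in both knockdown-labelled libraries than in either control (DCLK1, NES, KIT, LRIG1, BMI1, SOX9 and CD44), 2 had less in both (MSI2 and ALDH1A3) and 1, CD24, overlapped between the groups. Over all 16417 genes tested, 22.1% lay above and 22.6% lay below both controls in this way, 44.7% together. The unprefixed and the SP-prefixed pair differed in the same direction for all 10 markers, while 37.7% of all genes had opposite signs in the 2 pairs. For every marker but CD24 this follows from the lack of overlap between the groups, so it adds nothing to that count. The counting interval of the ratio held 0 in the unprefixed pair of KIT and in both pairs of LRIG1. The median log2 fold change of the markers was 0.36, beside -0.01 over all genes. No marker passed the edgeR quasi-likelihood test after Benjamini-Hochberg adjustment over all genes, and no gene tested did (0.0% called). The lowest adjusted p of that fit was 0.178, and 3 markers (DCLK1, NES and SOX9) had an unadjusted p under 0.05 beside 1846 genes in all (11.2%, with 4.03% higher). DESeq2 passed 2 markers, DCLK1 and NES, and 236 genes (1.4%). When a term for the prefix was added to the edgeR fit, 1 marker passed, DCLK1, which rose, and 304 genes in all (1.85%, with 0.512% higher and 1.34% lower). Every difference in bulk RNA can come from fewer or more cells of a kind or from less or more RNA per cell, and these cannot be told apart here.

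**Figure D1:**
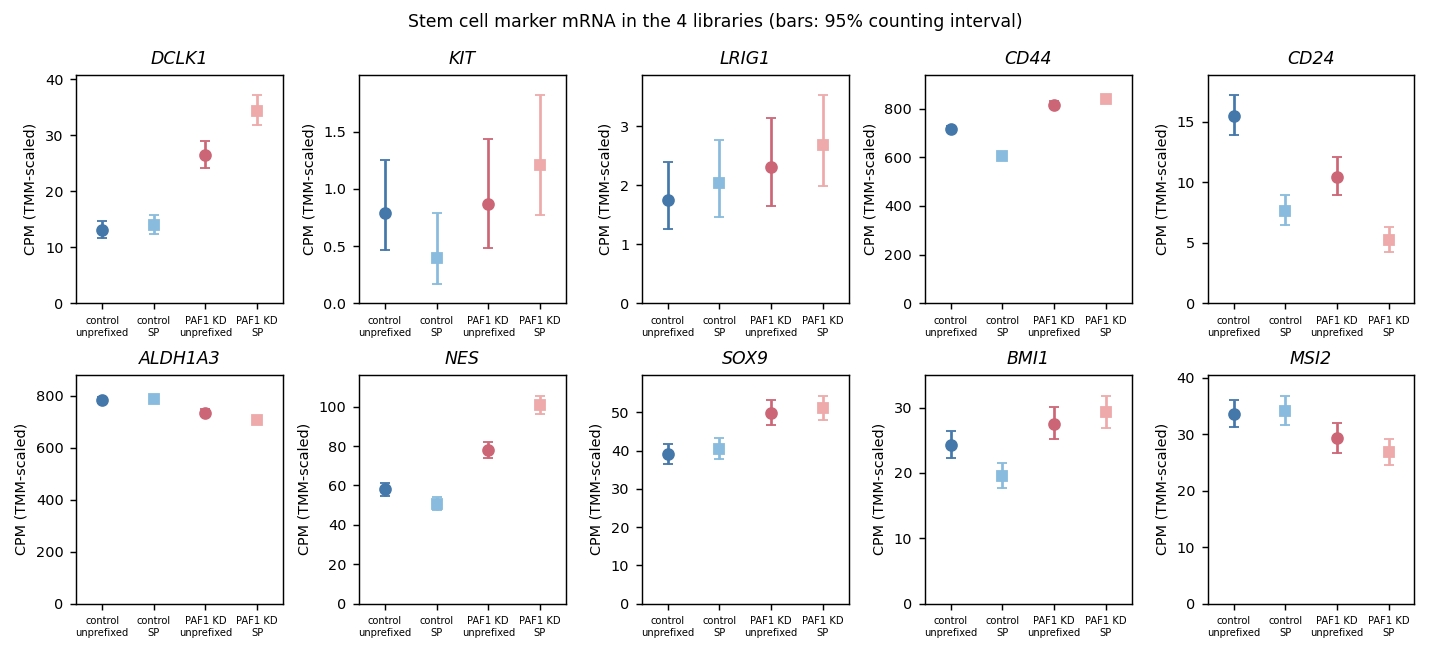
Level of each marker in CPM (TMM-scaled, linear axis from 0) in the 4 libraries, circles for unprefixed and squares for SP-prefixed, blue for control and red for labelled PAF1 knockdown (KD), with 95% counting intervals. DCLK1 and NES are higher and MSI2 lower in both knockdown-labelled libraries, while CD24 is lower in both SP-prefixed libraries.

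Genes listed as markers of pancreatic ductal epithelium were abundant in sum in every library, and whether they tell duct cells from other epithelial cells was not tested. The 7 ductal markers summed to 5523 to 6914 CPM, with KRT19, a keratin of duct cells, at 2509 and 1696 CPM in the control libraries, and 1878 and 1548 CPM in the knockdown-labelled libraries. MUC1, a membrane mucin among them, fell by 1.00 ± 0.13 in the fit with the prefix term (edgeR, adjusted p = 0.0114). Acinar markers summed to 1.54 and 0.846 CPM in control libraries and to 0.752 and 0.105 CPM in the others, and islet markers to 0.352 and 0.249 CPM against 0.116 and 0.105 CPM. Leukocyte and mast cell markers summed to 2.11 and 0.398 CPM against 0.752 and 0.0526 CPM. The part of these low levels in the marker results was not tested. Fibroblast and stellate markers summed to 36.3 to 45.5 CPM, most of it COL1A1, while COL3A1, DCN and FAP were at 0 counts, and endothelial markers to 23.8 to 29.8 CPM. The summed fibroblast level overlapped between the groups (36.3 and 45.5 CPM in controls, 39.1 and 42.9 CPM in the others), and its part in the marker results was not tested. The mast cell genes TPSAB1, CPA3 and FCER1A were at 0 counts in all libraries.

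Levels per kilobase of exon spread over 889-fold across the markers, and their order was almost the same in the 4 libraries. ALDH1A3 was highest with a mean of 131 CPM per kb, above 98.6% of the tested genes, and CD44 was next with 74.1 CPM per kb, above 96.7%. NES (12.9), SOX9 (11.5), BMI1 (5.88) and CD24 (3.13 CPM per kb) came next. CD24 was below the median of all tested genes, which was 4.41 CPM per kb, as were DCLK1 (1.53), MSI2 (1.44), LRIG1 (0.313) and KIT (0.147 CPM per kb). The order changed between neighbours alone: NES and SOX9 exchanged places in the SP-prefixed control, DCLK1 stood below MSI2 in both controls and above it in both knockdown-labelled libraries, and in the SP-prefixed one it also stood above CD24. The deposited length joins all annotated exons, 21479 bases for MSI2 and 14375 for DCLK1, so genes with many unused exons are understated on this scale.

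**Figure D2:**
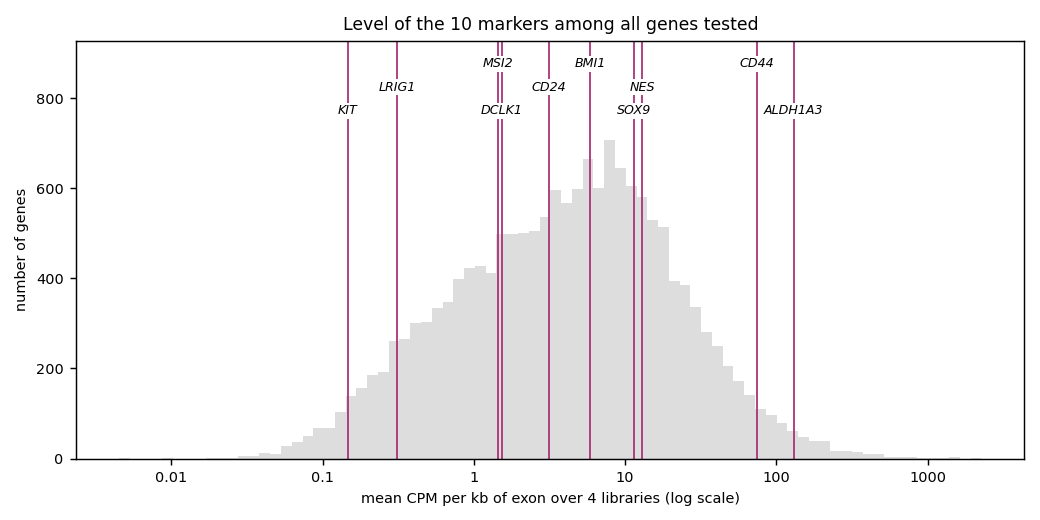
Number of tested genes (vertical axis) by mean CPM per kb of exon over the 4 libraries (horizontal axis, log scale), with a line for each marker. ALDH1A3 and CD44 lie in the right tail and KIT and LRIG1 in the left, around the median of 4.41 CPM per kb.

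DCLK1 (ENSG00000133083, chromosome 13, 35768652 to 36131306, minus strand, GRCh38) had the largest log2 fold change between the groups of the 10 markers. The unprefixed control held 296 counts of it, or 13.0 CPM with a 95% counting interval of 11.6 to 14.6, and the SP-prefixed control 281 counts, or 14.0 CPM (12.4 to 15.7). The unprefixed knockdown-labelled library held 457 counts, or 26.4 CPM (24.1 to 28.96), and its SP-prefixed counterpart 653 counts, or 34.4 CPM (31.8 to 37.1), so both stood above either control and no interval of one group met one of the other. The controls averaged 13.5 ± 0.678 CPM and the knockdown-labelled libraries 30.4 ± 5.61 CPM (SD, n = 2 per group). The log2 fold change was 1.17 ± 0.18 without a prefix term (± SE over n = 2 libraries a group; edgeR, adjusted p = 0.178) and 1.16 ± 0.17 in the fit that held one (edgeR, adjusted p = 0.0141), while DESeq2 gave an adjusted p of 0.000243. Of 16 alternatives to the fit without a prefix term, 6 passed DCLK1. The pairs had log2 ratios of 1.02 (unprefixed) and 1.30 (SP-prefixed), with counting intervals of 0.81 to 1.24 and 1.09 to 1.504. The difference between the pairs could not be tested with 1 library in each cell of the layout.

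DCLK1 is transcribed from more than 1 start, a long form from the first exons and a short form from within the gene. The deposited counts sum reads over exons from 35768652 to 36131306, whichever form they came from. Of the windows printed below, upstream and main lie outside that span. RefSeq (GRCh38.p14) lists 3 promoter windows for DCLK1, each running from 250 bases before a start to 50 bases after. They are printed because DCLK1 was the marker that passed in the fit with the prefix term, 5′ to 3′ on the minus strand, with capitals for the motif TGACTCA or its reverse complement TGAGTCA, the site of AP-1 factors.

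DCLK1 upstream, chr13:36131890-36132189: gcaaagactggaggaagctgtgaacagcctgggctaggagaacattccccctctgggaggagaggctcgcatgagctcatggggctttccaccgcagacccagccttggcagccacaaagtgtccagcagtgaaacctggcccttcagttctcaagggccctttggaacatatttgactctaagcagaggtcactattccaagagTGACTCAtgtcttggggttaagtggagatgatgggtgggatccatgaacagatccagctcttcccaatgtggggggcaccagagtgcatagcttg
DCLK1 main, chr13:36131333-36131632: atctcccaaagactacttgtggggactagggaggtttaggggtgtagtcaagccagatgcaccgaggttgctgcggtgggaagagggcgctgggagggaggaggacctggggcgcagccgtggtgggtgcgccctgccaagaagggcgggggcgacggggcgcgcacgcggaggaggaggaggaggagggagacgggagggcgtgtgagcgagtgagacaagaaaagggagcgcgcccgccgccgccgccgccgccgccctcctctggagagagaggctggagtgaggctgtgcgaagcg
DCLK1 internal, chr13:35855618-35855917: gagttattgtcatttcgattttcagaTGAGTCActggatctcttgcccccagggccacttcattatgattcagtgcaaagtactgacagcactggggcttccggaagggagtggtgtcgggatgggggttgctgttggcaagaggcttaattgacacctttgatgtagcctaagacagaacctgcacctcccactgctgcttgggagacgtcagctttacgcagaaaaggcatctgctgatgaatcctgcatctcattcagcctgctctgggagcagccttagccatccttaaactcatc

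The main window was rich in G and C (69.0%) with 27 CpG pairs, and the upstream and internal windows held 2 and 5 CpG pairs. The AP-1 letters began at position -45 from the start in the upstream window and at position -224 in the internal one, and the main window held none. Of 35116 RefSeq windows outside chromosome 8, 4.95% held these letters on either strand. A match of letters shows neither binding nor use of that start, and which start gave the DCLK1 reads cannot be read from counts per gene.

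The close relatives of DCLK1 were almost silent. DCX, the doublecortin of migrating neurons, and DCLK3, a related kinase, had 0 counts in all libraries, and DCLK2 had 2 and 4 counts in the controls and 6 and 9 in the knockdown-labelled libraries, too few to test. Of 12 tuft cell genes, 4 were tested, and 4 others (CHAT, HPGDS, IL25 and GNAT3) were at 0 counts. POU2F3, the transcription factor that specifies tuft cells, separated by prefix. It had 11.6 and 8.15 CPM in the unprefixed control and the unprefixed knockdown-labelled library, against 4.23 and 2.999 CPM in their SP-prefixed counterparts. It fell by 1.45 on the log2 scale in SP-prefixed libraries (SE 0.21, n = 2 per prefix; edgeR with group term, adjusted p = 0.044), while its group log2 fold change with the prefix term was -0.50 (edgeR, adjusted p = 0.298). With RLE scaling 0 genes passed by prefix. POU2F3 was alone in its direction, as 3 of the 4 tested tuft genes were higher on average in SP-prefixed libraries. The median of the 4 by prefix was 0.41 on the log2 scale. By group, 3 of the 4 were lower and 1 higher on average in the knockdown-labelled libraries, and 0 passed. Their median log2 fold change by group was -0.39 without the prefix term and -0.42 with it, beside -0.01 over all genes in both fits. The tuft genes summed to 58.2 and 72.2 CPM in the control libraries, and 53.1 and 59.5 CPM in the others, so the groups overlapped in that sum. Both SP-prefixed libraries stood above both unprefixed ones in it, opposite to POU2F3.

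NES (ENSG00000132688, chromosome 1, 156668763 to 156677397, minus strand), the intermediate filament nestin of neural and other progenitors, was the other marker that DESeq2 passed. It had 58.0 and 50.7 CPM in the unprefixed and SP-prefixed controls, and 77.9 and 101 CPM in the unprefixed and SP-prefixed knockdown-labelled libraries. The groups did not overlap, and the SP-prefixed pair held both the lowest and the highest library. The unprefixed pair had a log2 ratio of 0.43 (counting interval 0.32 to 0.54), and the SP-prefixed pair one of 0.99 (0.88 to 1.11). The fits gave 0.72 ± 0.17 without and 0.71 ± 0.17 with the prefix term (± SE over n = 2 libraries a group; edgeR, adjusted p = 0.228 and 0.0734), and DESeq2 an adjusted p of 0.03. VIM, the filament protein with which nestin assembles, had 161 and 199 CPM in the control libraries, and 316 and 392 CPM in the knockdown-labelled libraries. In the fit that held the prefix, VIM rose by 0.97 ± 0.13 (edgeR, adjusted p = 0.0114) and was the 1 of 4 tested filament genes that passed.

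**Figure D3:**
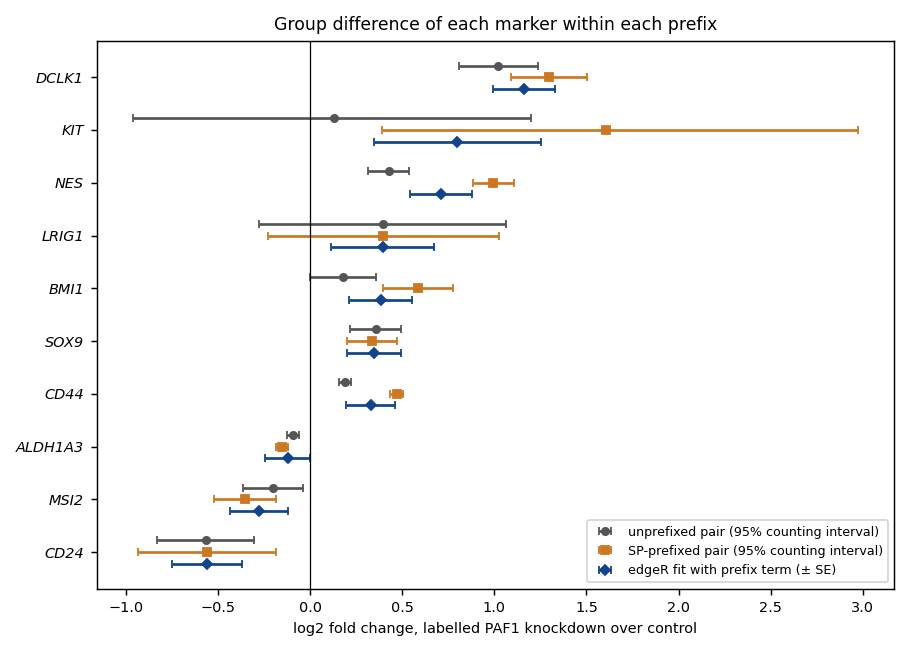
Log2 fold change of each marker, labelled PAF1 knockdown over control, in the unprefixed pair (grey circles) and the SP-prefixed pair (orange squares) with 95% counting intervals, and in the edgeR fit with the prefix term (blue diamonds, ± SE). Both pairs lie on the same side of 0 for all 10 markers, and the intervals of KIT and LRIG1 are the widest.

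Among the surface proteins, CD44 (ENSG00000026508, chromosome 11, 35138870 to 35232402, plus strand), the hyaluronan receptor, was abundant. Its highest to lowest ratio was 1.386, beside a median of 1.389 over all tested genes. It had 717 and 607 CPM in the control libraries, and 816 and 842 CPM in the knockdown-labelled libraries, with no overlap between the groups. The log2 fold change was 0.32 ± 0.14 (± SE over n = 2 libraries a group; edgeR, adjusted p = 0.451), and the controls differed from each other by 0.24, beside pair differences of 0.19 (unprefixed) and 0.47 (SP-prefixed). Gene counts do not separate the standard and variant splice forms of CD44. Of 15 genes for hyaluronan synthesis, turnover and CD44 partners, 14 were tested. Without the prefix term 10 of them were lower in the knockdown-labelled libraries (median log2 fold change -0.14), and with it 8 were (median -0.09). Over all genes, 48.3% were higher without the prefix term and 48.8% with it. HAS3, a hyaluronan synthase, had 114 and 149 CPM against 93.8 and 71.7 CPM (log2 fold change -0.67 ± 0.19; edgeR, adjusted p = 0.294), and HAS2 did not exceed 1.21 CPM. HYAL1, a hyaluronidase, fell by 1.26 ± 0.21 with the prefix term (± SE over n = 2 libraries a group; edgeR, adjusted p = 0.0214) and was the member of that list that passed. It had 8.10 and 13.3 CPM in the control libraries against 3.53 and 5.37 CPM in the others.

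CD24 (ENSG00000272398, chromosome 6, 106969831 to 106975627, minus strand), the partner of CD44 in sorting, was the 1 marker whose libraries separated by prefix. The unprefixed control held 352 counts, or 15.5 CPM with a counting interval of 13.9 to 17.2, and the SP-prefixed control 154 counts, or 7.67 CPM (6.502 to 8.98). The unprefixed knockdown-labelled library held 181 counts, or 10.5 CPM (8.996 to 12.1), and its SP-prefixed counterpart 99 counts, or 5.21 CPM (4.23 to 6.34). Both SP-prefixed libraries thus stood below both unprefixed ones, as did 16.6% of all tested genes; 33.7% separated by prefix in either direction. The log2 ratio of SP-prefixed to unprefixed was -1.02 in the controls and -1.01 in the knockdown-labelled libraries. In the fit with both terms it was -1.01 ± 0.19 (SE, n = 2 per prefix; edgeR, Benjamini-Hochberg adjusted p = 0.0775), which did not pass beside 30 genes that did (0.183%, with 0.067% lower). The group log2 ratios of the pairs were close, -0.57 and -0.56, and the fit with both terms gave -0.56 ± 0.19 (edgeR, adjusted p = 0.193), the fit without a prefix -0.57 ± 0.42 (edgeR, adjusted p = 0.647). Leaving the unprefixed control out of the fit without a prefix term, which leaves the prefixes unbalanced between the groups, gave 0.0382, while the SP-prefixed pair, which does not hold that library, had a counting interval of -0.94 to -0.18. CD24 has near-identical processed copies elsewhere in the genome, so reads shared with them could be lost or misplaced. Of 6 genes for CD24 ligands and their glycans, 4 were tested and 0 passed in either fit.

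**Figure D4:**
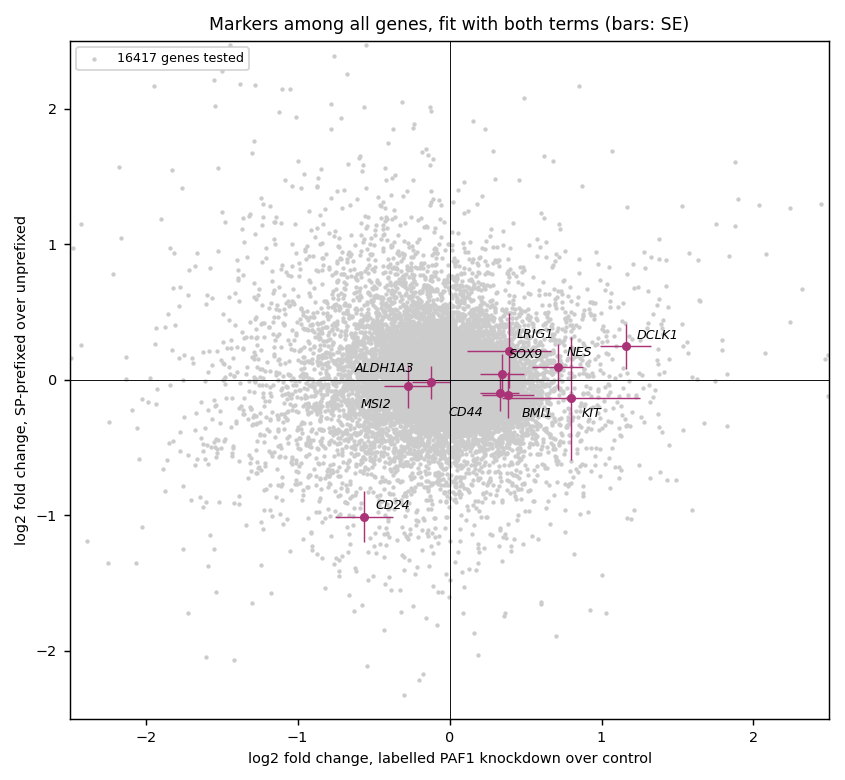
Log2 fold change by group (horizontal axis) and by prefix (vertical axis) from the edgeR fit with both terms, grey for the 16417 genes tested (20 lie outside the axes) and purple for the markers with SE. DCLK1, KIT and NES lie farthest to the right of the markers, at 0.25, -0.14 and 0.09 on the prefix axis. CD24 lies apart from the other markers at -1.01 on it.

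KIT and LRIG1, the receptor kinase of stem cell factor and a transmembrane brake on ERBB receptors, were near the limit of detection. KIT (ENSG00000157404, chromosome 4, 54657918 to 54740715, plus strand) had 18 and 8 counts in the unprefixed and SP-prefixed controls (0.792 and 0.398 CPM) and 15 and 23 counts in the unprefixed and SP-prefixed knockdown-labelled libraries (0.867 and 1.21 CPM). Its unprefixed pair had a log2 ratio of 0.13, with a counting interval of -0.96 to 1.20, and its SP-prefixed pair one of 1.60, with 0.39 to 2.97. The fit gave 0.79 ± 0.46 (± SE over n = 2 libraries a group; edgeR, adjusted p = 0.56). The interval of the unprefixed pair held 0 and that of the SP-prefixed pair did not. KITLG, the ligand of KIT, had a mean of 8.48 CPM per kb against 0.147 CPM per kb for KIT. It had 48.2 and 41.0 CPM in the control libraries, and 56.5 and 59.0 CPM in the others (0.37 ± 0.14; edgeR, adjusted p = 0.404).

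LRIG1 (ENSG00000144749, chromosome 3, 66378797 to 66501263, minus strand) had 40 and 41 counts in the controls (1.76 and 2.04 CPM) and 40 and 51 counts in the knockdown-labelled libraries (2.31 and 2.68 CPM). Its log2 fold change was 0.40 ± 0.28 (± SE over n = 2 libraries a group; edgeR, adjusted p = 0.637), and the counting intervals of all 4 libraries overlapped. SLC25A26 on the opposite strand covers 12.9% of its exon bases, and whether the counting used strand is not given in the sources used here. The paralogs LRIG2 and LRIG3 stood higher per length, at means of 1.29 and 1.93 CPM per kb against 0.313 CPM per kb for LRIG1, with log2 fold changes of 0.03 ± 0.15 and 0.13 ± 0.18. Of the 8 genes of the LRIG family and its receptor targets, 1 passed with the prefix term. ERBB3, a receptor that signals as a partner of ERBB2, fell by 0.71 ± 0.14 (± SE over n = 2 libraries a group; edgeR, adjusted p = 0.0422). Its levels were 113 and 114 CPM in the control libraries against 75.3 and 63.3 CPM in the others.

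The nuclear markers SOX9 and BMI1 had small differences of like size. SOX9 (ENSG00000125398, chromosome 17, 72121020 to 72126420, plus strand), the ductal transcription factor, had 39.0 and 40.5 CPM in the control libraries, and 49.9 and 51.0 CPM in the knockdown-labelled libraries. The SD was 1.04 CPM in the control libraries, and 0.809 CPM in the others (n = 2 per group), so the groups lay apart, and the log2 ratio of the unprefixed pair was 0.36 and that of the SP-prefixed pair 0.33. The fit gave 0.35 ± 0.13 (± SE over n = 2 libraries a group; edgeR, adjusted p = 0.399). Of 17 ductal and progenitor genes, 11 were tested and 0 passed in either fit, and ONECUT1, PTF1A and SOX10 were at 0 counts. Without the prefix term 7 of the 11 were lower in the knockdown-labelled libraries (median log2 fold change -0.22), and with it 6 were (median -0.07). Over all genes, 48.3% were higher without that term and 48.8% with it.

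BMI1 (ENSG00000168283, chromosome 10, 22321211 to 22331484, plus strand) had 24.3 and 19.5 CPM in the control libraries, and 27.6 and 29.3 CPM in the knockdown-labelled libraries. The counting interval of the unprefixed control (22.4 to 26.5 CPM) overlapped that of the unprefixed knockdown-labelled library (25.2 to 30.2 CPM). The unprefixed pair had a log2 ratio of 0.18, with a counting interval of 0.0005 to 0.36 that only just left out 0. The SP-prefixed pair had a log2 ratio of 0.59 (0.40 to 0.78). The fit gave 0.37 ± 0.17 (± SE over n = 2 libraries a group; edgeR, adjusted p = 0.459). The readthrough gene COMMD3-BMI1 shares 23.3% of the exon bases of BMI1 and was listed at 0 in all libraries, and how reads in shared exons were counted was not given. Of 17 genes of Polycomb repressive complex 1 and its classic targets, 15 were tested, with a median log2 fold change of 0.00, and 0 passed. RING1 and RNF2, the ubiquitin ligase subunits with which BMI1 pairs, had log2 fold changes of -0.07 ± 0.13 and 0.14 ± 0.14. CDKN2A and CDKN2B, cell cycle inhibitors known as targets of BMI1, were at 0 counts in all 4 libraries, and the reason was not tested.

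MSI2 and ALDH1A3 were the markers with less mRNA in both knockdown-labelled libraries. MSI2 (ENSG00000153944, chromosome 17, 57255851 to 57684685, plus strand), the Musashi RNA-binding protein, had 33.6 and 34.2 CPM in the control libraries, and 29.3 and 26.8 CPM in the others, with log2 ratios of -0.20 and -0.35 in the unprefixed and SP-prefixed pairs. The fit gave -0.28 ± 0.14 (± SE over n = 2 libraries a group; edgeR, adjusted p = 0.509). Its paralog MSI1 had at most 9 counts in a library, and 0 of the 3 tested genes of the Musashi and NUMB list passed.

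ALDH1A3 (ENSG00000184254, chromosome 15, 100877714 to 100916626, plus strand), which oxidises retinaldehyde and gives many carcinoma cells their ALDH activity, was the steadiest marker. It had 782 and 788 CPM in the control libraries, and 734 and 708 CPM in the knockdown-labelled libraries, a highest to lowest ratio of 1.11 beside a median of 1.39 over all tested genes. The groups did not overlap, with a log2 fold change of -0.12 ± 0.12 (± SE over n = 2 libraries a group; edgeR, adjusted p = 0.745). ALDH1A3-AS1 on the opposite strand covers 27.5% of its exon bases and had 365 to 671 counts per library. ALDH1A1, the isoform most used in stem cell assays, had at most 1 count in a library, and ALDH1A2 at most 11 counts. Among 21 other aldehyde dehydrogenase and retinoid genes, 18 were tested, of which 14 were lower on average in the knockdown-labelled libraries (median log2 fold change -0.38). Over all genes the median was -0.01 and 48.3% were higher. ALDH3B1 and ALDH3B2, enzymes for lipid-derived aldehydes, fell by 0.71 ± 0.13 and 1.42 ± 0.26 with the prefix term (± SE over n = 2 libraries a group; edgeR, adjusted p = 0.033 and 0.0284), and 0 of this list passed without it. With the prefix term, 1.34% of all genes were called lower. ALDH3B1 went from 192 and 211 CPM to 118 and 129 CPM, and ALDH3B2 from 6.21 and 4.88 CPM to 2.60 and 1.58 CPM.

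The wider list of stem cell markers was centred near 0. Of 18 further markers, 11 were tested, 8 were higher and 3 lower on average in the knockdown-labelled libraries, with a median of 0.03 on the log2 scale. None passed either edgeR fit, in which 2 had an unadjusted p under 0.05 without the prefix term. The other 7, among them PROM1 with at most 2 counts in a library, were below the expression filter and did not exceed 0.484 CPM.

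By prefix the other markers overlapped. Log2 fold changes of SP-prefixed over unprefixed libraries lay between -0.14 (KIT) and 0.25 (DCLK1) for the other 9 markers, and 0 of the 10 passed. DCLK1 was higher in the SP-prefixed than in the unprefixed knockdown-labelled library, by 0.38 on the log2 scale (counting interval 0.20 to 0.55). Between the controls it differed by 0.10 (-0.14 to 0.34). NES differed by 0.37 between the knockdown-labelled libraries and by -0.19 between the controls, SP-prefixed over unprefixed in each case. The SP-prefixed knockdown-labelled library was the highest library for 7 markers and the lowest for the other 3.

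The protein-coding genes most like each marker were found by the root-mean-square distance of log2 CPM, centred on each gene's own mean, over the 4 libraries. For DCLK1 they included CCN1 (0.084) and JCAD (0.095), beside a spread of 0.59 for DCLK1 itself. CCN1 is a matricellular protein. JCAD, a junction protein first described in endothelium, had 40.2 and 39.9 CPM in the control libraries, and 78.1 and 117 CPM in the knockdown-labelled libraries. For CD24 they were SYTL2 (0.065), a vesicle transport protein, CCL28 (0.071), a mucosal chemokine, and NKD1 (0.080), an inhibitor of Wnt signalling, beside a spread of 0.57. SYTL2 had 16.4 and 7.27 CPM in the unprefixed and SP-prefixed controls and 9.89 and 5.05 CPM in the unprefixed and SP-prefixed knockdown-labelled libraries. For KIT, KIF1A, CCDC86 and RRS1 were nearest, all lowest in the SP-prefixed control as KIT was. KIT held 8 to 23 counts per library. The counting interval of its SP-prefixed control (0.172 to 0.785 CPM) overlapped that of each other library, so its pattern and its neighbours are uncertain.

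**Figure D5:**
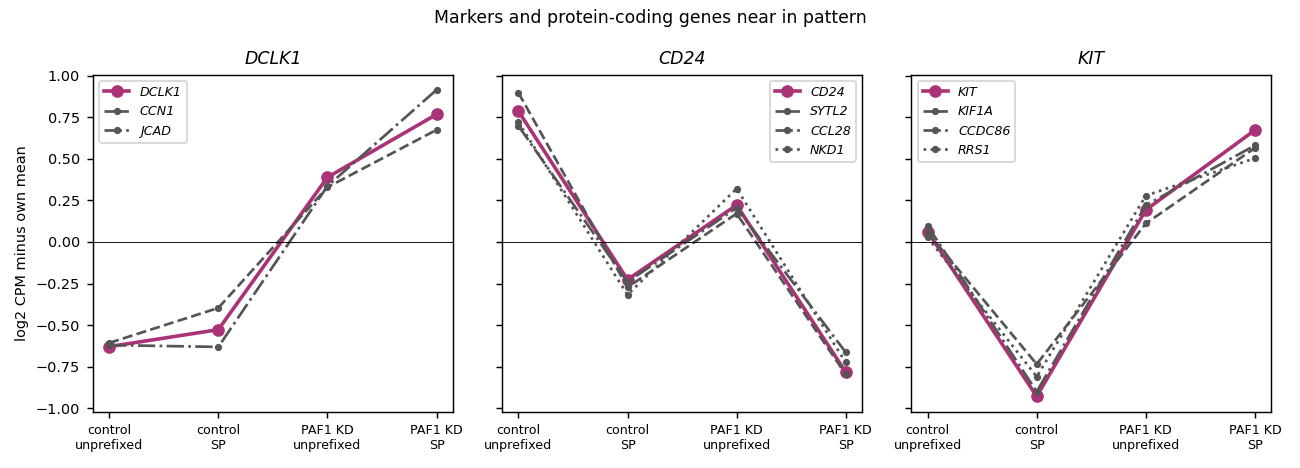
Log2 CPM minus each gene's own mean (vertical axis) in the 4 libraries for DCLK1, CD24 and KIT (purple) and protein-coding genes near to each in pattern (grey, 2 for DCLK1 and 3 for the others), with lines that only join points. DCLK1 and its neighbours separate by group, CD24 and its neighbours alternate by prefix, and KIT and its neighbours dip in the SP-prefixed control. KIT rests on 8 to 23 counts per library. The distances used a prior count of 2, which the plotted values leave out.

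For NES the nearest were TRNP1, ENG and SLC8A1, and ENG, the TGF-beta co-receptor endoglin, had 27.8 and 23.6 CPM in the control libraries, and 35.4 and 46.8 CPM in the others. For CD44 they were TMED1, MTERF1 and SLC25A13, and for BMI1 NUP35, IMPDH1 and SLTM, which like both markers were lowest in the SP-prefixed control. SOX9 was nearest to CMTM7, SLC16A7 and IFT57, LRIG1 to GLIS3, ERI1 and C17orf67, MSI2 to NHLRC3, CHM and ZNF816, and ALDH1A3 to PBX2, RNF187 and STX11. These genes were picked for their likeness, so no p was computed for them.

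RefSeq windows were found for 9 of the 10 markers, 18 in all. The GC box CCGCCC or its reverse complement stood in 13 of the 18, in 9 markers, beside 45.0% of all windows. The TATA box TATAAA was in 0 of 18 beside 11.5%, and CACGTG, the E-box of MYC and related factors, in 1 of 18 (BMI1) beside 7.26%. The TEAD letters GGAATG stood in 3 of 18 beside 14.0%, the E-box CACCTG of ZEB and SNAI factors in 2 of 18 beside 20.6%, and TGACTCA in 3 of 18, 2 of them in DCLK1 and 1 in LRIG1. Each was searched on both strands, and none of the 6 contains another. Several windows of a gene overlap, so they are not independent.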

How the data were processed

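The authors deposited 1 table of 8 columns of raw counts, 1 per library and lane, which are whole numbers and not normalized. FastQC, HISAT2 and featureCounts are named in the submitters' processing notes, with hg19 and GRCh38 and no roles. Of 60483 identifiers, 56753 were in GENCODE release 29 (GRCh38), and the deposited coordinates of 56729 of these overlapped the annotated span. RNA was isolated with a mirVana kit and had an integrity number of 10, per the labels' protocols. The column names carry the group and lane but no library number. PD2, in the names of the knockdown columns, is an older name of PAF1.

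Lanes agreed within sampling noise (chi-square per degree of freedom 1.01 to 1.03) and were summed. Of 40 lane comparisons over the markers, 2 had an exact binomial p under 0.05. Tests used edgeR 4.0.16 under R 4.3.3 (quasi-likelihood F test, TMM, expression filter with a minimum count of 10, Benjamini-Hochberg threshold 0.05). All 10 markers passed the filter. The fit had no covariate, and a second had a prefix term and 1 residual degree of freedom. Standard errors were derived from the F statistic, which uses a dispersion moderated across all genes. An SE given over n = 2 libraries a group therefore states the number of libraries and is not the spread of that gene between them. No source says that the libraries are separate cultures, so a p-value reflects library spread that could be technical. Intervals are exact 95% Poisson or binomial intervals and cover counting error only. DESeq2 1.42.0, limma-voom (limma 3.58.1), other scalings, filters and lanes and leaving out each library were alternatives. The scripts were tested on simulated data. The markers, gene lists and tests were chosen with earlier results of these data known. The text names all markers, fixed relatives of each, list members that passed and the 3 genes nearest in pattern, of which 1 is not reported here. Of the tuft, ductal and other cell lists some genes are named as levels, chosen after their values were seen.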

Additional observations from a re-analysis of the deposited data

How the results depend on the processing

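No paired analysis was possible because the columns carry no library number. The prefix, the one token that could pair libraries, served as a block in the fit with the prefix term. The group count of 0 genes became 902 with no filter on low counts, 236 with DESeq2, 304 with the prefix term, and 629 with the prefix term and TMM factors from all genes, the last chosen after seeing the data. Leaving out a library gave 0 to 1471 genes, the most (1471) when the unprefixed control was left out, then 290 when the SP-prefixed control was. The count of 0 markers became 2 (DCLK1 and NES) with no filter, with DESeq2 and with the prefix term and TMM factors from all genes, 1 (DCLK1) with the prefix term, and 0 to 2 on leaving out a library. DCLK1 was between 0.97 and 1.35 under its 16 alternatives and passed in 6 of them, and NES passed in 4. The adjusted p of DCLK1 ran from 5.51e-07 to 0.999. One direction reversed: CD24 by group ran from -1.15 to 0.0382 on leaving out a library, the latter without the unprefixed control.

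By prefix, 30 genes became 0 with RLE and without a group term, 195 with the upper quartile, 59 with library size only, 601 with no filter, 176 with the stricter filter, 68 with DESeq2, 85 and 262 with lane 1 and lane 2 alone, and 243 with TMM factors from all genes. The count of 0 markers became 1, CD24, with the upper quartile, with no filter, with the stricter filter, with lane 2 alone and with TMM factors from all genes. No marker changed direction by prefix. Counts of calls with the prefix term thus depend on small changes of scaling, and the cause was not tested. Depth limits KIT and LRIG1, which the stricter filter removed.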
